A study of Homo sapiens with 6 samples.

Results

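The epidermal differentiation complex (EDC) is a crowded stretch of human chromosome 1 whose genes build the hardened outer layer of stratified squamous epithelium. Its members were chosen by symbol among the coding genes of the deposited table: filaggrin (*FLG*) and the other fused-type genes, involucrin (*IVL*), loricrin (*LORICRIN*), the small proline-rich (SPRR) genes, the late cornified envelope (LCE) genes and the S100A genes. The rule gave 54 members of the 60480 gene identifiers in the table, spread over 1.65 Mb between positions 151982915 and 153632039 of chromosome 1 in hg38. The complex was picked because *FLG* fell in IGF2BP3 knockdown cells, so the change of *FLG* is given here as a description, with no test. RNA-seq was done on OE-19, an established line of adenocarcinoma of the esophagogastric junction (AEG) grown in RPMI1640 medium with serum and antibiotics. All 6 libraries come from this line, 3 from cells that carry a control shRNA (control) and 3 from cells whose IGF2BP3 was knocked down by shRNA (IGF2BP3 KD). IGF2BP3 is an RNA-binding protein that reads m6A marks on mRNA. The labels say neither whether the 3 IGF2BP3 KD libraries share an shRNA nor whether replicates are separate cultures, so p-values measure the spread between these libraries, which may be technical.

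In squamous epithelium, keratinocytes that leave the basal layer switch on this complex as they mature. Involucrin, loricrin, SPRR and LCE proteins are cross-linked by transglutaminases into the cornified envelope under the cell membrane. The fused-type proteins join an S100-like calcium-binding domain to long repeats, and the precursor of filaggrin is stored in keratohyalin granules, then cut into units that bundle keratin filaments. The S100A genes encode small calcium-binding proteins, and many of them are active in columnar and other epithelia too.

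OE-19 cells carried most columnar markers at far higher levels than squamous ones. Of 12 columnar markers, 11 had enough counts to be tested, led by *ERBB2*, *KRT8* and *KRT18*. *CDX1* was at 0, and *KRT20* had only 4 to 38 counts per library, fewer than several squamous markers. Of 12 squamous markers, 10 were tested, with *KRT10* at 892 to 1421, *SOX2* at 342 to 473 and *PAX9* at 142 to 244 counts per library. *KRT1* had no read and *KRT5* had 0 to 3 counts. The squamous list summed to 32.0 to 35.7 CPM (counts scaled to library size by edgeR's TMM method) in control and 35.3 to 37.1 in IGF2BP3 KD libraries, against 19877 to 20878 and 21804 to 22335 for the columnar list. The largest part of the columnar sum came from *ERBB2*, at 762275 to 933227 counts per library, against 137878 to 183316 for *KRT8*. Among the squamous markers, *KRT4* rose by 1.33 and *KRT6A* by 0.61 on the log2 scale (edgeR's quasi-likelihood test, adjusted p = 0.0017 and 0.028). Of the 11 columnar markers, 5 were called higher, among them *CDX2* at 0.50 and *CDH17* at 0.44, and 2 lower, *KRT18* and *KRT8* at -0.07 and -0.06. For all 19778 genes tested, 9.87% were called higher and 10.6% lower. The part of these markers in the results on the EDC was not tested. Of 10 myeloid markers, 3 were tested, with *LYZ* at 137764 to 184962 counts and *CD68* called higher (0.54, adjusted p = 0.00019, edgeR), while *CSF1R*, *CSF3R*, *FCGR3A* and *ELANE* were at 0 in all 6 libraries. The myeloid list summed to 2506 to 2734 CPM in control and 2543 to 2616 CPM in IGF2BP3 KD libraries, most of it from *LYZ*. *PTPRC*, *ITGAM* and *MPO* had at most 8, 9 and 10 counts in any library. Of 8 fibroblast markers, 3 were tested and *COL1A1* was called higher (0.50, adjusted p = 0.00078, edgeR), while *COL1A2* and *LUM* were at 0. This list summed to 21.3 to 24.6 CPM in control and 29.9 to 34.4 CPM in IGF2BP3 KD libraries, most of it from *COL1A1*. *IGF2BP3* itself had 7416, 7363 and 6532 counts in control and 777, 792 and 794 counts in IGF2BP3 KD libraries, a log2 fold change of -3.03 ± 0.06 (SE). Total counts per library ranged from 53424071 to 69989087.

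The bases just upstream of 6 members are shown: *FLG* and its neighbours *HRNR* and *FLG2*, the envelope genes *IVL* and *SPRR3*, and *S100A6*, the most abundant member. Each line gives the 60 bases before the transcription start in RefSeq (GRCh38.p14), 5′ to 3′ on the strand of the gene, with the word TATAAA in capitals. The 60 bases shown for *FLG* are chr1:152325240-152325299 on the minus strand. Those for *HRNR* are chr1:152224194-152224253 and those for *FLG2* chr1:152360007-152360066, both on the minus strand. Those for *IVL* are chr1:152908486-152908545 and those for *SPRR3* chr1:153001689-153001748, both on the plus strand. Those for *S100A6* are chr1:153535992-153536051 on the minus strand.
FLG: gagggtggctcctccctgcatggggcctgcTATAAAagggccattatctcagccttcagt
HRNR: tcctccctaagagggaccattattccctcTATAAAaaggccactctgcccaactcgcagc
FLG2: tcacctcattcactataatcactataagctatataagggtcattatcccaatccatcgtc
IVL: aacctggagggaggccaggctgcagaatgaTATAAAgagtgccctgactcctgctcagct
SPRR3: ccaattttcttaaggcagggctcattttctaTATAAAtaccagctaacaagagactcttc
S100A6: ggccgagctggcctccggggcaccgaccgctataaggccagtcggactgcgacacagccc

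TATAAA, the core of the TATA box, was searched on the strand of each gene, and 51 members had a RefSeq promoter window (*LCE1B*, *SPRR2D* and *SPRR2E* had none). Between 40 and 20 bases before the start, 25 of the 51 members (49.0%) held the word, against 2.92% of the 27305 genes with a window. In these members it began between base -31 and base -28. The SPRR genes held it in 8 of 9 cases and the fused-type genes in 5 of 7, while the LCE genes held it in 5 of 17 and the S100A genes in 6 of 16. The word for the AP-1 factor, TGACTCA or TGAGTCA (each the reverse complement of the other, so both strands were read), occurred anywhere from 250 bases before to 50 bases after the start in 10 members (19.6%), against 6.05% of all genes. It was present in 5 of the 9 SPRR genes and in both *IVL* and *LORICRIN*, and in none of the LCE or fused-type windows. The word TATAAA was not found in the core window of any of the 5 members above 100 CPM. It was found in 8 of the 14 tested members under that level and in 17 of the 32 that were not tested. Only this exact spelling was searched, so near spellings, such as tataagg in the printed lines of *FLG2* and *S100A6*, were not counted. Such matches describe letters in these windows and are not evidence of binding.

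Most of the complex gave no reads in OE-19 cells. No read was counted in any library for 28 of the 54 members: 17 of 18 LCE genes, 6 of 11 SPRR genes, *TCHHL1*, *CRNN*, *S100A7*, *S100A8* and *S100A12*. A count of 0 allows up to 3 counts, which is 0.0429 to 0.0562 CPM at the depth of these libraries and covers counting error only. A further 7 members had a few counts and were not tested. *IVL*, a scaffold of the cornified envelope, had 0, 13 and 5 counts in control libraries and 0 in each IGF2BP3 KD library. *SPRR2D* had 4, 5 and 0 counts in control and 0 in each IGF2BP3 KD library, and *SPRR2A* had its 12 counts in control replicate 1. *LCE3C* had 4 counts in IGF2BP3 KD replicate 2 and none elsewhere, *LORICRIN* 1 count in control replicate 3 and *S100A7A* 1 count in control replicate 1. *S100A9*, which pairs with S100A8 in neutrophils to form calprotectin, had 7 counts in replicate 1 of each group and 0 in the other libraries. At these numbers a difference between the groups was not detectable.

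The 19 members that passed the filter on low counts were 5 fused-type genes, 3 SPRR genes and 11 S100A genes, and the other 35 members did not pass. Between 99.5% and 99.8% of the reads of the complex came from S100A genes, and between 97.5% and 98.0% from 5 of them, namely *S100A6*, *S100A10*, *S100A14*, *S100A16* and *S100A11*. *S100A6* alone gave 37.0% to 40.9%. In TPM (counts per exon length as a share of the library, with exon lengths of GENCODE v44 so that genes can be compared), the control means ran from 2980 for *S100A6* down to 0.174 for *TCHH*. Ranked by the mean TPM over all 6 libraries, *S100A6* lay at the 99.9th percentile of all genes tested and *FLG2*, the lowest of the 19, at the 2.76th.

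**Figure D1:**
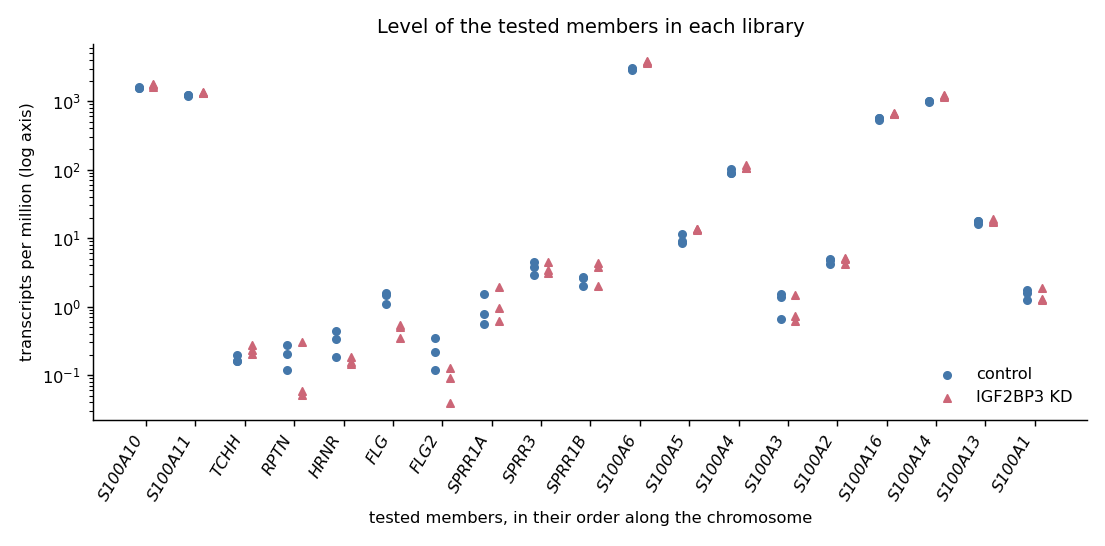
Level of the 19 tested members in each library, in TPM on a log axis, in their order along the chromosome. Circles are the 3 control and triangles the 3 IGF2BP3 KD libraries; 5 S100A genes have control means from 555 to 2980 TPM, and the fused-type genes stay below 2 TPM in every library.

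Leaving aside *FLG*, which the choice of genes used, 3 of the 18 other tested members were called higher (adjusted p under 0.05) and 0 lower in IGF2BP3 KD cells. Among all 19778 genes tested, 9.87% were called higher and 10.6% lower. The 3 called higher are *S100A6*, *S100A14* and *S100A16*. None of the 18 was called lower by DESeq2 either, against 2416 of 38437 genes. In edgeR, 2 of the 18 were lower with an unadjusted p under 0.05, against 3024 of all 19778 genes. The median log2 fold change of the 18 was 0.09, against 0.01 over all genes tested. The 3 IGF2BP3 KD libraries lay above all control libraries for 6 of the 18, against 18.0% of all genes, and below them for 0 of the 18, against 17.8%. In bulk RNA, fewer cells that express a gene and less RNA per cell cannot be told apart.

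*FLG* (ENSG00000143631, chromosome 1, 152302165 to 152325239, minus strand) encodes profilaggrin, the precursor of filaggrin. It had 400, 302 and 367 counts in control libraries and 106, 130 and 85 counts in IGF2BP3 KD libraries. The lowest control count, 302, lay far above the highest IGF2BP3 KD count, 130, and the groups did not overlap. As CPM, *FLG* stood at 5.48 ± 1.01 (SD, n = 3) in control and 1.80 ± 0.398 (SD, n = 3) in IGF2BP3 KD cells, a log2 fold change of -1.60 ± 0.22 (SE). Per length this is a low level, 1.39 TPM in control and 0.461 TPM in IGF2BP3 KD cells, at the 19.0th percentile of the genes tested. Leaving out each library in turn moved the log2 fold change between -1.75 and -1.43.

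*FLG-AS1* (ENSG00000237975, chromosome 1, 152168125 to 152445456, plus strand) runs antisense across *HRNR*, *FLG*, *FLG2* and *CRNN*. It shares 1587 exonic bases with *FLG*, 12.4% of the exons of *FLG*, and none with the other 3 genes. The antisense gene had 232, 186 and 230 counts in control and 61, 81 and 59 counts in IGF2BP3 KD libraries, a log2 fold change of -1.56 ± 0.23 (SE). All 3 IGF2BP3 KD libraries lay below the control libraries. Its counts stood in a nearly constant ratio to those of *FLG*, 0.58, 0.616 and 0.627 in control and 0.575, 0.623 and 0.694 in IGF2BP3 KD libraries. The library kit keeps the strand, but the strand setting of the counting is not given in the sources used here. Reads in the shared bases, which are 10.6% of the exons of *FLG-AS1*, therefore cannot be assigned to either gene. How far such reads shape the values of the pair was not tested. Counted as 1 gene, the summed pair had a log2 fold change of -1.59.

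The genes on both sides of *FLG* had values of the same sign that did not pass the test. *HRNR* (chromosome 1, 152212076 to 152224193) encodes hornerin, a repeat protein of the cornified cell. It had 92, 68 and 32 counts in control and 24, 34 and 27 counts in IGF2BP3 KD libraries. Control replicate 3 lay inside the range of the IGF2BP3 KD libraries, and the other 2 control libraries lay above it. The log2 fold change was -1.01 ± 0.38 (SE), with a 95% interval of -1.86 to -0.17 and an adjusted p of 0.093 (edgeR's quasi-likelihood test). Without control replicate 3 it was -1.29 with an adjusted p of 0.033, and this was the only library whose removal brought *HRNR* past the threshold.

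*FLG2* (chromosome 1, 152348735 to 152360006) encodes filaggrin 2. Its 67, 23 and 36 counts in control libraries stood beside 19, 16 and 7 counts in IGF2BP3 KD libraries. Scaled for depth, IGF2BP3 KD replicate 1 at 0.352 CPM exceeded control replicate 2 at 0.330 CPM, so the groups overlapped. The log2 fold change was -1.42 ± 0.56 (SE), with a 95% interval of -2.64 to -0.20 and an adjusted p of 0.10 (edgeR's quasi-likelihood test).

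**Figure D2:**
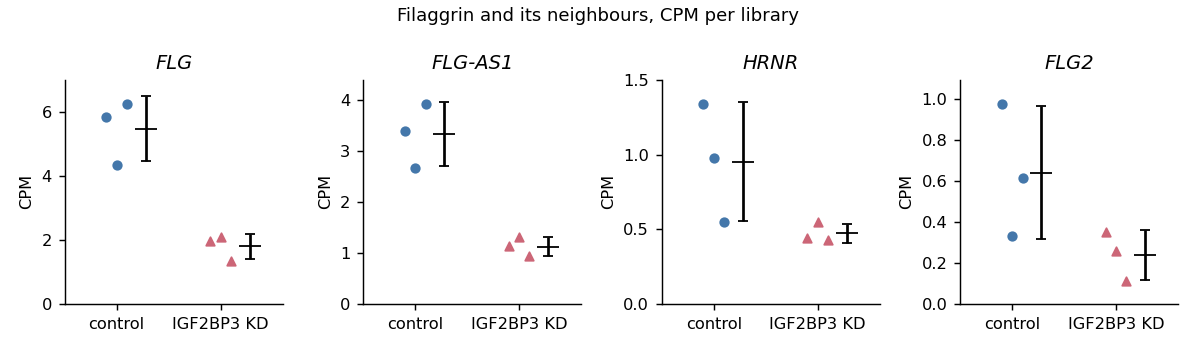
TMM-scaled CPM of *FLG*, *FLG-AS1*, *HRNR* and *FLG2* in each library, with circles for control, triangles for IGF2BP3 KD, and a bar for the mean with its SD over 3 libraries. The groups are separate for *FLG* and *FLG-AS1* and overlap for *HRNR* and *FLG2*.

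The remaining fused-type genes were near the limit of detection. *RPTN*, which encodes the matrix protein repetin, had 9, 21 and 13 counts in control and 3, 4 and 21 counts in IGF2BP3 KD libraries. In counts, IGF2BP3 KD replicate 3 equalled the highest control library, while the other 2 lay under all of them. *TCHH*, the gene of trichohyalin in the hair follicle and tongue, had 24, 24 and 25 counts in control and 23, 37 and 31 counts in IGF2BP3 KD libraries, with a log2 fold change of 0.43 and a 95% interval of -0.45 to 1.32. The interval for *RPTN* was -2.27 to 1.25, so neither direction was excluded for either gene. Summed over the 7 fused-type genes, control libraries had 6.29 to 8.64 CPM and IGF2BP3 KD libraries 2.71 to 3.56 CPM. Without *FLG*, the other 6 summed to 1.81 to 2.80 CPM in control and 1.28 to 1.47 CPM in IGF2BP3 KD libraries.

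The SPRR genes, whose products bridge other proteins of the envelope, showed no call. *SPRR3*, abundant in normal oesophageal squamous epithelium, had 116, 139 and 75 counts in control and 104, 93 and 87 counts in IGF2BP3 KD libraries. The IGF2BP3 KD libraries lay within the range of the control counts, and the log2 fold change was -0.05 with a 95% interval of -0.60 to 0.50. *SPRR1B* had 36, 34 and 22 counts against 44, 44 and 24, a log2 fold change of 0.45 with an interval of -0.45 to 1.34. *SPRR1A* had 8, 11 and 18 counts against 21, 12 and 8, a log2 fold change of 0.28 with an interval of -1.23 to 1.79. For *SPRR3* and *SPRR1A* the sign changed when single libraries were left out.

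The S100A genes held nearly all the reads of the complex and all 3 calls to the higher side. Their summed level was 2329 to 2389 CPM in control and 2703 to 2789 CPM in IGF2BP3 KD libraries, without overlap. The complex as a whole took 0.232% to 0.238% of all counts in control and 0.272% to 0.279% in IGF2BP3 KD libraries. Of the 11 tested S100A genes, 3 were called higher, none was called lower, and 9 had a log2 fold change above 0, with a median of 0.09. Over all genes tested, 9.87% were called higher, 10.6% lower, and 51.4% had a value above 0. None had an unadjusted p under 0.05 on the lower side.

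*S100A6* (ENSG00000197956, chromosome 1, 153534599 to 153536244) encodes calcyclin, which binds the ubiquitin-pathway protein CACYBP. It measured 907, 903 and 865 CPM in control and 1131, 1063 and 1109 CPM in IGF2BP3 KD libraries. Every IGF2BP3 KD library lay above every control library. The mean rose from 892 ± 23.1 to 1101 ± 34.6 CPM (SD, n = 3), a 1.23-fold change with a log2 value of 0.30 ± 0.03 (SE) and an adjusted p of 2.3e-05 (edgeR's quasi-likelihood test).

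*S100A14* (chromosome 1, 153614255 to 153616986) and *S100A16* (chromosome 1, 153606886 to 153613145) are neighbouring genes of epithelial cells. *S100A14* measured 385, 397 and 390 CPM in control and 446, 475 and 472 CPM in IGF2BP3 KD libraries, a rise of 1.19-fold with a log2 value of 0.25 ± 0.03 (SE, adjusted p = 0.00015, edgeR). *S100A16* measured 281, 296 and 296 CPM in control and 333, 346 and 343 CPM in IGF2BP3 KD libraries, a rise of 1.17-fold with a log2 value of 0.23 ± 0.03 (SE, adjusted p = 0.00027, edgeR). For both genes the groups were separated by more than the spread within either group. These rises are small, and none of the 3 genes reached an absolute log2 fold change of 0.5.

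Both *S100A10* and *S100A11* lie at the other end of the complex and also belong to its 5 most abundant members. *S100A10*, the light chain that binds annexin A2, measured 515, 490 and 484 CPM in control and 539, 506 and 543 CPM in IGF2BP3 KD libraries. Control replicate 1 lay above IGF2BP3 KD replicate 2, and the log2 fold change of 0.09 ± 0.03 (SE) had an adjusted p of 0.078 (edgeR). *S100A11*, a partner of annexin A1, measured 251, 239 and 249 CPM in control and 254, 262 and 270 CPM in IGF2BP3 KD libraries. Its groups did not overlap, though the lowest IGF2BP3 KD library stood just above the highest control library, and the log2 fold change of 0.09 ± 0.03 (SE) had an adjusted p of 0.080 (edgeR). *S100A10* passed the threshold with DESeq2 (adjusted p = 0.034), with coding genes only (0.044), without control replicate 1 (0.029) and without IGF2BP3 KD replicate 2 (0.034). *S100A11* passed it with coding genes only (0.044), so the calls of both genes depend on these choices. The difference between these genes and the 3 called higher was not tested.

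**Figure D3:**
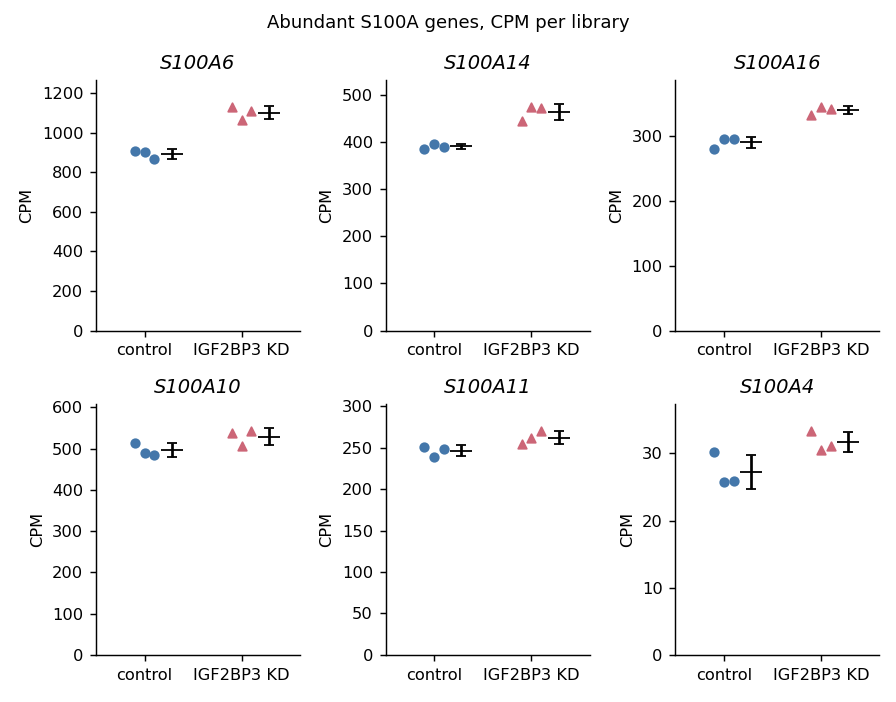
TMM-scaled CPM of 6 abundant S100A genes in each library, with circles for control, triangles for IGF2BP3 KD, a bar for the mean with its SD over 3 libraries, and axes that start at 0. The groups are apart for *S100A6*, *S100A14* and *S100A16*, closer for *S100A11* and *S100A4*, and overlap for *S100A10*.

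*S100A4*, a regulator of non-muscle myosin, and *S100A5* were also higher in every IGF2BP3 KD library without passing the test. *S100A4* measured 30.2, 25.8 and 25.9 CPM in control and 33.3, 30.5 and 31.1 CPM in IGF2BP3 KD libraries, a log2 fold change of 0.21 ± 0.07 (SE) with an adjusted p of 0.069 (edgeR). Without control replicate 1, the highest of the control libraries, the value was 0.29 with an adjusted p of 0.016, and with coding genes only the adjusted p was 0.045. With the replicate number as a block it was 0.22 with an adjusted p of 0.040. *S100A5* had 197, 250 and 159 counts in control and 227, 262 and 260 counts in IGF2BP3 KD libraries, a log2 fold change of 0.45 ± 0.17 (SE) with an adjusted p of 0.084 (edgeR).

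The other 4 tested S100A genes had intervals that included 0. *S100A13*, involved in the release of growth factors without a signal peptide, had 705 to 837 counts in control and 692 to 753 in IGF2BP3 KD libraries, with a log2 fold change of 0.05 and an interval of -0.15 to 0.25. *S100A2* had 132 to 163 counts in control and 105 to 152 in IGF2BP3 KD libraries (0.03, -0.40 to 0.46). *S100A1*, best known from heart muscle, had 81 to 101 counts in control and 64 to 110 in IGF2BP3 KD libraries (-0.06, -0.63 to 0.51). *S100A3* had 10 to 27 counts in control and 10 to 24 in IGF2BP3 KD libraries (-0.34, -1.64 to 0.95). The exons of *S100A13* and *S100A1* share 235 bases on opposite strands. *S100A13* also shares 536 bases with *RP1-178F15.5* on its own strand, and *S100A1* shares 320 with *RP1-178F15.4* on the opposite strand. The counts of both genes are uncertain in these stretches.

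**Figure D4:**
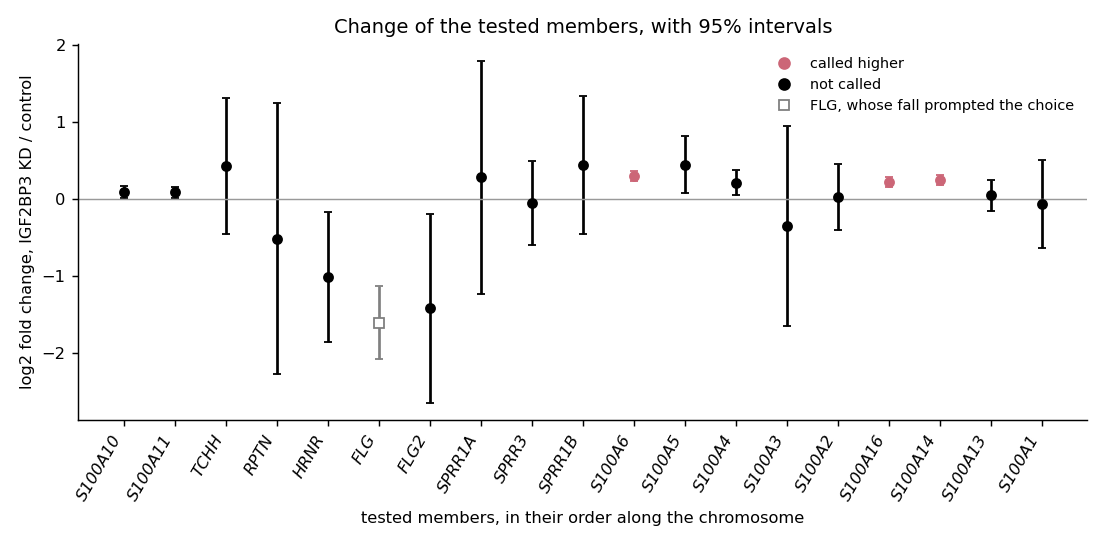
Log2 fold change of the 19 tested members, IGF2BP3 KD over control, in their order along the chromosome, with 95% intervals from the edgeR fit. The open square is *FLG*, whose fall prompted the choice of genes, so its interval is a description only. The 3 genes called higher are coloured, and the intervals of *HRNR* and *FLG2* lie below 0 although neither passed the adjusted threshold.

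Other genes inside the span of the complex were mostly not called. The table held 38 genes there that are not members, of which 8 were tested and 1 was called lower. That gene was *FLG-AS1*, whose counts followed those of *FLG*, so its call may repeat the fall that prompted the choice. The median log2 fold change of these 8 was -0.18. Within 1 Mb before the complex, 4 of 38 tested genes were called lower and 4 higher, with a median of -0.03. Those lower were *PIP5K1A*, *ZNF687*, *CDC42SE1* and *TDRKH*, and those higher included *CGN*, *ANXA9* and *THEM4*, at 0.30, 0.37 and 0.28. Within 1 Mb after the complex, 6 of 32 tested genes were called lower, led by *UBE2Q1* at -0.86, and 4 were called higher, *RAB13*, *IL6R*, *RPS27* and *JTB*, again with a median of -0.03. The flanks therefore held calls in both directions at shares between 10.5% and 18.8%, against 10.6% lower and 9.87% higher over all genes tested.

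**Figure D5:**
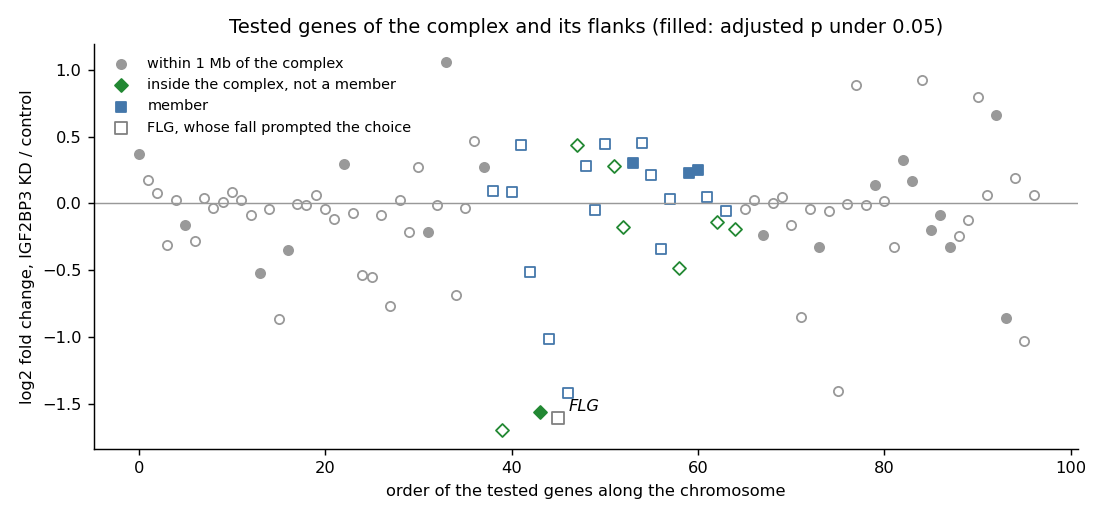
Log2 fold change of every tested gene of the complex and of 1 Mb on either side, by order along the chromosome, with filled symbols for an adjusted p under 0.05. Squares are members, diamonds other genes inside the complex and circles genes of the flanks; the open grey square is *FLG*, beside *FLG-AS1*, and the 3 filled squares above 0 are *S100A6*, *S100A16* and *S100A14*.

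The partners of the cornified envelope held a single call. Of 20 tested genes in this list, which holds transglutaminases, plakins and desmosomal proteins, none was called lower by edgeR or DESeq2 and 1 was called higher, and their log2 fold changes ran from -1.30 for *CSTA* to 1.71 for *PI3*, with a median of 0.04. Among all genes tested, 10.6% were called lower and 9.87% higher. With no adjustment of p, 4 of the 20 were higher and 0 lower, against 3061 and 3024 of all 19778 genes. The gene called was *DSG2*, a desmosomal cadherin of simple epithelia, with a log2 fold change of 0.35 ± 0.02 (SE, adjusted p = 1.6e-06, edgeR). *TGM1*, the transglutaminase of keratinocytes, had 65 to 106 counts in control and 32 to 106 in IGF2BP3 KD libraries.

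Among 15 tested genes that process filaggrin or restrain its proteases, 2 were called lower and 5 higher, with a median of 0.08. The shares over all genes tested were 10.6% lower and 9.87% higher. *PADI1*, which deiminates arginine residues in filaggrin and keratins, fell by 0.69 ± 0.11 on the log2 scale (SE, adjusted p = 0.00094, edgeR), and the kallikrein gene *KLK10* fell by 0.31 ± 0.04 (SE, adjusted p = 0.00027, edgeR). *CTSD*, *CTSH* and *PRSS8*, which encode proteases, and *SPINT2*, which encodes a protease inhibitor, rose by 0.26, 0.19, 0.27 and 0.23. *PADI1* was the only gene of this list with a called change above 0.5 in size.

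Of 40 tested regulators of the complex, 15 were called lower and 7 higher, 37.5% and 17.5% of the list. Over all genes tested the shares were 10.6% and 9.87%. All 40 are coding genes. With coding genes only, 15 of the 40 were lower and 8 higher, against 2141 and 2045 of 13991 genes. The median change of the list was -0.13 on the log2 scale. The AP-1 genes *JUN* and *FOSL2* fell by 0.44 ± 0.05 and 0.23 ± 0.03 (SE), the ETS factor *ELF3* fell by 0.27 ± 0.03, and *EZH2*, the H3K27 methyltransferase that silences the complex in progenitor cells, fell by 0.30 ± 0.04. *NOTCH2* and *VDR*, both tied to keratinocyte differentiation, rose by 0.61 and 0.21. The list held activators on both sides, and none of its 15 lower genes reached an absolute log2 fold change of 0.5.

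Partners and receptors of S100 proteins moved in both directions. Of 20 tested genes, 2 were called lower and 6 higher, against 10.6% and 9.87% of all genes tested. The median of the list was -0.05. *AHNAK*, which binds the complex of S100A10 and annexin A2, rose by 0.14 ± 0.02 (SE, adjusted p = 0.00026, edgeR) and *ANXA11*, a partner of S100A6, by 0.32 ± 0.03 (adjusted p = 5.2e-05). *BSG* and *NDRG1* rose by 0.28 and 0.24. *MYH9*, the myosin heavy chain that S100A4 binds, and *PPP5C* each fell by 0.19.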

How the data were processed

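Poly(A) RNA of 6 OE-19 libraries was prepared with a strand-keeping kit and sequenced as paired reads. According to the submitters' processing notes and the paper's methods, the authors used fastp, HISAT2 on hg38 and featureCounts, and deposited raw counts per gene with no normalization. Versions, annotation release and strand setting are not given in the sources used here. Of 60612 rows in the table, 132 repeats of 44 identifiers were left out, and 99.97% of identifiers were found in GENCODE v44, which gave positions, exon lengths and overlaps.

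The test was the quasi-likelihood test of edgeR 4.0.16 under R 4.3.3, two-sided, after TMM scaling and the filterByExpr filter (min.count 10, min.total.count 15). P-values were adjusted by Benjamini-Hochberg over the 19778 genes left, and calls were made at 0.05. The code was tested on simulated data. Library totals ranged from 53424071 to 69989087. DESeq2 1.42.0, other filters and scaling, a replicate block, and fits without each library were alternatives. Values between libraries of a group differed by more than sampling noise (chi-square per degree of freedom 9.86 to 17.6).

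The members and gene lists were chosen with earlier results of these data known. All tested members are named; of each list and of the neighbours, called genes averaging 1 CPM or more were named, up to 4 per direction by p, and a few that this rule would name are not reported here. *TGM1*, *CSTA*, *PI3* and the uncalled markers were added after their values were seen. Replicate numbers did not pair the libraries. Python 3.11.15 with pandas 2.3.3 was used. Sequences come from RefSeq, and no protein sequence was used here.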

Additional observations from a re-analysis of the deposited data

How the results depend on the processing

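Scaling by RLE, DESeq2, and a minimum of 10 counts in every library left all 19 counts of calls within 1.5 times their values, and no called gene changed sign under any alternative. Replicate numbers did not pair the libraries (correlations of same-numbered deviations from -0.03 to 0.009). With the replicate block, 0 members other than *FLG* were lower and 4 were higher. Over all genes, 2026 were lower and 1875 higher. On an unadjusted p under 0.05, 2 members other than *FLG* were lower and 7 higher. Of all 19778 genes, 3024 were lower and 3061 higher. At that threshold 7 genes before the complex were lower, 4 envelope partners were higher and 5 S100 partners were lower. With coding genes only, 6 members were higher and no other gene inside the complex was lower (0), since *FLG-AS1* is not a coding gene. Over the 13991 coding genes of that fit, 2045 were higher and 2141 lower. With no low-count filter, 2 genes after the complex were higher, 2 before it were lower and 2 envelope partners were higher. Over all 38462 genes of that fit, 1354 were higher and 1768 lower. Asking for a change of 0.5 or more on the log2 scale left 416 genes lower and 465 higher over all, 0 members higher, 1 gene lower and 1 higher on each side of the complex, 0 envelope partners higher, 1 filaggrin-processing gene lower and 0 higher, 0 regulators lower and 2 higher, and 0 S100 partners in either direction.

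Leaving out each library in turn gave 0 to 1 members other than *FLG* lower and 3 to 5 higher. The 1 came without control replicate 3 (*HRNR*), and the 5 without control replicate 1 (*S100A4* and *S100A10*). Over all genes the counts were 1641 to 1970 lower and 1414 to 1741 higher. They were 5 to 7 lower and 2 to 3 higher after the complex (2 higher without control replicate 3 or IGF2BP3 KD replicate 2), 2 to 5 lower (2 without control replicate 2, control replicate 3 or IGF2BP3 KD replicate 3) and 3 to 4 higher before it, and 1 to 2 envelope partners higher. Regulators gave 10 to 15 lower and 4 to 7 higher (4 without IGF2BP3 KD replicate 3). The cause of these shifts was not tested, but each such fit has fewer samples. SPRR and fused-type genes other than *FLG* had SEs from 0.25 to 0.80 on the log2 scale, so changes of moderate size in them were not detectable at this depth.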

Other observations

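Outside the complex, 5 further genes of the S100 list were in the table, 2 of them at 0 in all libraries. *S100P*, an S100 gene on another chromosome, had 15525 to 18636 counts in control and 12835 to 16354 counts in IGF2BP3 KD libraries, with a log2 fold change of -0.07 and an adjusted p of 0.21 (edgeR). *S100PBP*, whose product binds S100P and is not an S100 protein itself, had 1294 to 1506 counts in control and 950 to 1188 in IGF2BP3 KD libraries. All 3 IGF2BP3 KD libraries lay below the control libraries, and the log2 fold change was -0.25 ± 0.07 (SE, adjusted p = 0.036, edgeR).

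Several low genes of squamous differentiation outside the rule were uneven among replicates. *CRCT1*, a gene of the complex that is expressed in squamous epithelium, had 13, 4 and 20 counts in control and 39, 5 and 0 counts in IGF2BP3 KD libraries. *PRR9* had 47, 41 and 16 counts against 45, 40 and 26, and *DSG3*, a desmosomal cadherin of squamous cells, had 36, 32 and 7 against 38, 49 and 20. None of the 3 passed the test (adjusted p = 0.86, 0.74 and 0.46, edgeR).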
